A study of Macaca mulatta with 20 samples.

Results

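Whole blood of male rhesus macaques was profiled before and after irradiation of the thorax with 10 Gy, and 8 genes known to respond to glucocorticoids were followed across the 4 groups: NR3C1, FKBP5, TSC22D3, SGK1, KLF9, ZBTB16, PER1 and DDIT4. They were chosen by name, and every probe that bore one of these names on the array was kept if it was well above its local background on at least 5 of the 20 arrays. All 9 such probes met that condition, and each was well above background on 20 of 20 arrays with no saturated spot. These 8 genes were a small share of the 15929 genes with a tested probe.

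There were 5 arrays before irradiation (Pre-irradiation) and 5 at each later time, namely Day 2, Day 5 and Day 30. The last 3 groups had received a single 10 Gy exposure of the whole thorax under anaesthesia, and none of the animals used was given a mitigating drug. Per the study's methods, steroids were not part of the treatment, and the 5 replicates were matched by animal between days, with 1 exception where RNA of 2 animals had been pooled; the labels do not show which array that was. Blood had been drawn into RNA-stabilising tubes, globin transcripts were depleted, and the RNA was hybridised in 1 colour to an array designed for human genes. Levels are given as the log2 of the processed signal minus the 75th percentile of all gene spots on the same array, so a level of 0 is the brightness of that percentile and 1 unit is a factor of 2.

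Glucocorticoids enter cells and bind the glucocorticoid receptor, the product of NR3C1, which is held ready in the cytoplasm by heat shock chaperones. The loaded receptor moves to the nucleus, raises transcription of genes with its binding sites and restrains inflammatory genes. In blood, a rise of cortisol is known to release neutrophils into the circulation, to draw lymphocytes out of it, and to raise transcripts such as FKBP5, TSC22D3, PER1 and ZBTB16 within leukocytes. The question put to these data was whether such transcripts differed between the days after exposure and the samples taken before it.

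Each gene was read through a human 60-base probe, and because the receptor was read through a pair of probes that gave opposite signs, those are shown together with the probes of the chaperone-linked inhibitor FKBP5 and of the effectors TSC22D3 and SGK1. The first 30 bases of each are given 5′ to 3′ in lower case, as in the deposited array files, with no base marked. How far they match the macaque transcripts was not examined.

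NR3C1, brighter probe: gtgaaaatgggttggtgcttctaacctgat
NR3C1, second probe: cgaattggcagtaaatgttagccatttaca
FKBP5: ccccatggaacaaatgggatcaatttgtga
TSC22D3: ccttatcctgatgtatggttccaggatttg
SGK1: gtttttatggaccaatgccccagttgtcag

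On the human build hg19 named by the array files, the brighter NR3C1 probe lies at chr5:142660729-142660788 and the second at chr5:142657518-142657577, both on the minus strand. Their starts are 3211 bases apart in the annotated transcript NM_001018077. The FKBP5 probe lies at chr6:35541928-35541987, the TSC22D3 probe at chrX:106956486-106956545 and the SGK1 probe at chr6:134490656-134490715, all on the minus strand. Each covers an unbroken run of genome, so none spans an intron. DDIT4 was printed as 10 spots on each array, and its usable spots agreed closely, with an SD between spots of 0.056 log2 units on the median array and 0.084 at most.

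No member passed the threshold of p under 0.005 with a false discovery rate under 10% over all 19961 probes tested (limma, paired by replicate number) in any of the 6 comparisons among the groups. In day 2 against pre-irradiation, 0 of 8 members were called, where 0.0601% of all probes were, and 3 members had an unadjusted p under 0.05, against 15% of all probes. In day 5 against pre-irradiation, 0 of 8 were called against 0% of all probes, 3 members had an unadjusted p under 0.05 against 11.2% of all probes, and 1 member, SGK1, had a p under 0.005 against 1.58%. In day 30 against pre-irradiation, 0 of 8 were called against 0% of all probes, and 0 members had an unadjusted p under 0.05 against 17.5% of all probes. The study applied the same cut-offs with other software and reported many more changed genes at each day. Why the counts differ was not tested, and the shares here hold for this procedure only. For every member, the values of the 2 groups overlapped in all 6 comparisons; the groups did not overlap for 1.62%, 0.641% and 2.04% of all probes at day 2, day 5 and day 30 against pre-irradiation, for 0.165% and 1.8% at day 5 and day 30 against day 2, and for 0.611% at day 30 against day 5.

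At day 2, 7 of the 8 members were above and 1 below the pre-irradiation level by their mean paired change, where 44.9% of all probes were above. Their median change was 0.37, against a median of −0.04 over all probes. At day 5 the members split 5 above to 3 below, with a median of 0.08, where 54.7% of all probes were above with a median of 0.03. At day 30 it was again 7 to 1, with a median of 0.22, where 47.4% of all probes were above with a median of −0.02. The largest mean changes were those of SGK1 and TSC22D3 at day 2 and of SGK1 at day 5, and they are described with the effector genes further on. Some directions depended on the scaling: DDIT4 turned from above to below at day 2 with another background correction, and TSC22D3 and PER1 turned at day 5 with another scaling.

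**Figure D1:**
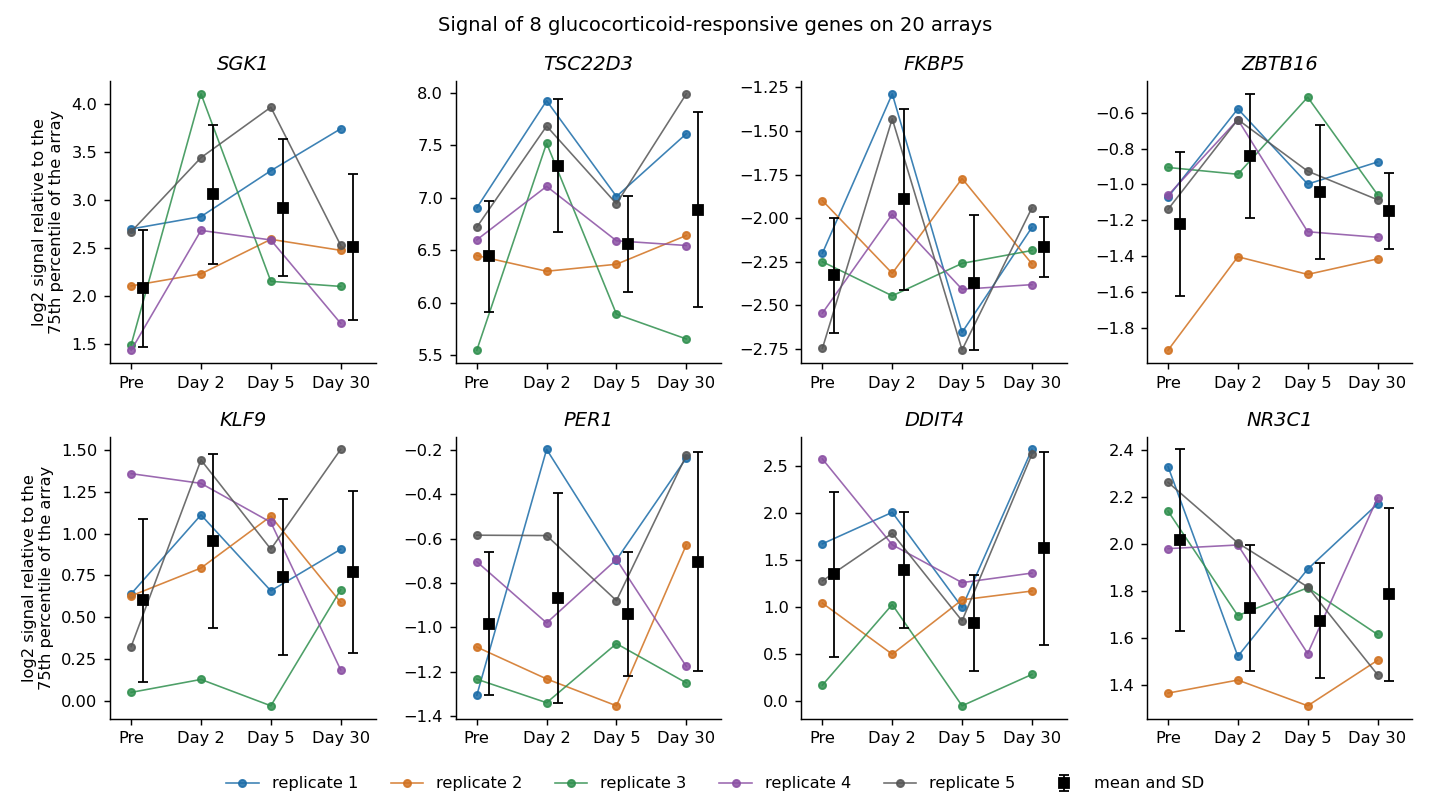
Level of each gene on each array, as log2 signal relative to the array's 75th percentile, in the 4 groups; lines join arrays of the same replicate number, squares and bars are the group mean and SD over 5 arrays, and the vertical scale differs between panels. In each panel the arrays of different days overlap, and SGK1 at day 2 ranges from 2.23 to 4.11.

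NR3C1 encodes the glucocorticoid receptor itself. Its brighter probe read 2.33, 1.37, 2.14, 1.98 and 2.26 before irradiation in replicates 1 to 5 and 1.52, 1.42, 1.70, 2.00 and 2.00 at day 2. At day 5 it read 1.89, 1.31, 1.81, 1.54 and 1.82, and at day 30 it read 2.17, 1.51, 1.62, 2.19 and 1.45. Replicate 2 was low throughout, and in each of the 5 pairs the day 5 array was below the pre-irradiation array, as for 5.86% of all probes, although the groups overlapped. The mean change was −0.29 ± 0.17 (SE, n = 5 pairs) at day 2, −0.34 ± 0.14 at day 5 and −0.23 ± 0.20 at day 30. The day 5 value had an unadjusted p of 0.0438 and an adjusted p of 0.430 by limma, and the other days had adjusted p values of 0.468 and 0.591. The day 2 change was −0.16 without replicate 1 and −0.54 with normexp, and the day 30 change was −0.082 without replicate 5.

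The second NR3C1 probe gave the opposite sign at each of these days. It read 0.67, 0.64, 0.080, 0.26 and 0.31 before irradiation and 1.03, 0.70, 0.46, 0.50 and 1.01 at day 30, higher in 5 of 5 pairs, as for 7.41% of all probes. Its mean changes were 0.25 ± 0.19 at day 2, 0.13 ± 0.18 at day 5 and 0.35 ± 0.17 at day 30 (SE, n = 5 pairs), with limma adjusted p values of 0.555, 0.815 and 0.332. Its day 2 change was 0.15 without replicate 5 and 0.081 with normexp, and its day 5 change was 0.0072 with median scaling and −0.024 without replicate 5. The difference between the changes of the 2 probes, brighter minus second, was −0.54 ± 0.54 (SD, n = 5 pairs) at day 2, −0.47 ± 0.44 at day 5 and −0.57 ± 0.66 at day 30. An exact two-sided sign-flip permutation test of that difference gave p values of 0.125, 0.0625 and 0.1875 for the 3 days, and 0.0625 is the smallest value that 5 pairs allow. A direction for the receptor transcript therefore depended on the probe read: averaged over both probes, the changes were −0.018 at day 2, −0.11 at day 5 and 0.059 at day 30.

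**Figure D2:**
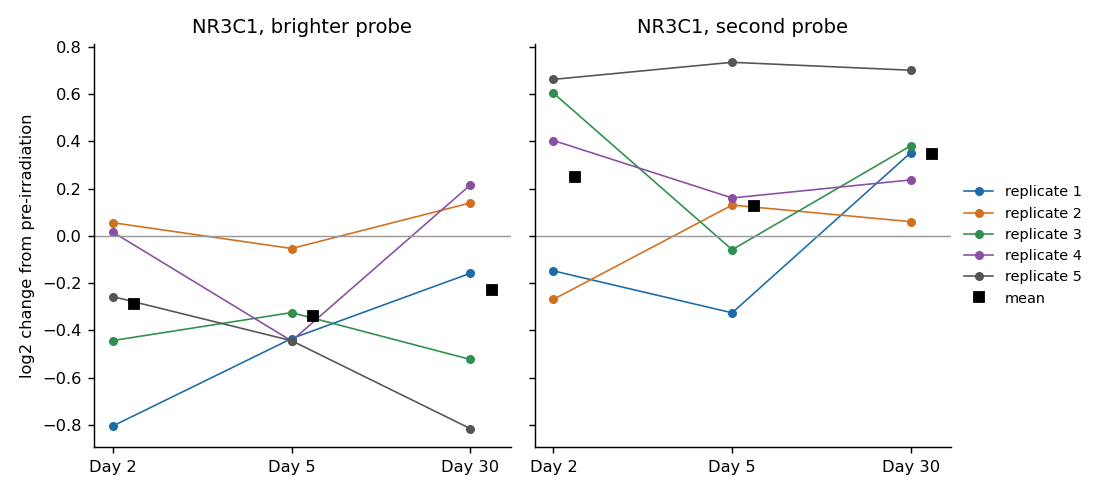
Change of each NR3C1 probe from the pre-irradiation array of the same replicate number, in log2 units, at the 3 days; lines join replicate numbers and squares are means over 5 pairs. The brighter probe averages −0.29, −0.34 and −0.23 and the second probe 0.25, 0.13 and 0.35.

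FKBP5 encodes a chaperone-bound immunophilin that lowers the receptor's affinity for hormone, and its induction is a standard sign of receptor activity. Its level was −2.20, −1.90, −2.25, −2.54 and −2.75 before irradiation and −1.29, −2.32, −2.45, −1.98 and −1.43 at day 2. Replicates 1, 4 and 5 were higher at day 2, by 0.91, 0.57 and 1.32 log2 units, while replicates 2 and 3 were lower by 0.42 and 0.20. The mean change at day 2 was 0.44 ± 0.27 (SE, n = 5 pairs; 95% interval −0.19 to 1.06), a 1.35-fold value with an adjusted p of 0.474 by limma, and without replicate 5 it was 0.22. At day 5 the level was −2.66, −1.77, −2.26, −2.41 and −2.76, and the mean change from pre-irradiation was −0.04 ± 0.15. By day 30 the arrays lay closer together, from −2.38 to −1.94, and 4 of 5 pairs were higher, with a mean change of 0.16 ± 0.20 that was 0.0033 without replicate 5. Neither later change approached the threshold, with adjusted p values of 0.938 and 0.704.

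TSC22D3 encodes GILZ, a leucine zipper protein that carries much of the anti-inflammatory action of glucocorticoids in leukocytes. Its level was 6.91, 6.45, 5.55, 6.60 and 6.72 before irradiation and 7.93, 6.30, 7.52, 7.11 and 7.68 at day 2. At day 2, 4 of the 5 arrays stood above every pre-irradiation array, and replicate 2 was the exception at 0.15 below its own earlier value. The mean change was 0.86 ± 0.28 (SE, n = 5 pairs), 1.82-fold with a 95% interval of 1.16 to 2.86. By limma the unadjusted p was 0.0159 and the adjusted p 0.247. Compared within each of the 5 slides, which held 1 array of each group, day 2 was above pre-irradiation on 5 of 5 slides, by 0.20 to 1.33. On every slide those arrays had different replicate numbers, so this comparison ignores the pairing and reuses the same arrays. Without replicate 3 the mean change was 0.59, and with another background correction, normexp, it was 0.39. Its size thus rested in part on that pair and on that choice. The drop with normexp was not particular to TSC22D3. Other bright genes also read lower at day 2 with it, such as CEBPD (0.035 to −0.43) and CD3D (−0.57 to −0.98).

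On day 5 TSC22D3 read 7.01, 6.37, 5.89, 6.59 and 6.95, close to the pre-irradiation arrays of the same number. The mean change from pre-irradiation was 0.12 ± 0.14, with an adjusted p of 0.780. Set directly against day 2, day 5 was lower in 4 of 5 pairs by a mean of 0.75 log2 units, with an unadjusted limma p of 0.0167 that became 0.972 after adjustment; with normexp the difference was −0.28. Its level at day 30 was 7.61, 6.64, 5.66, 6.55 and 7.99, which is the widest spread of the 4 groups for this gene at an SD of 0.93. Replicates 1 and 5 were higher than before irradiation by 0.71 and 1.27, the other three stayed within 0.19 of their earlier values, and the mean change of 0.44 ± 0.23, 0.24 without replicate 5, had an adjusted p of 0.347. From low to high the group means ran from pre-irradiation at 6.45 through day 5 at 6.56 and day 30 at 6.89 to day 2 at 7.31, and no neighbours in that order differed past the threshold.

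SGK1 encodes a serum- and glucocorticoid-induced kinase that acts on ion channels and on FOXO transcription factors. Before irradiation it read 2.70, 2.11, 1.49, 1.44 and 2.67, and at day 2 it read 2.83, 2.23, 4.11, 2.68 and 3.44. Every pair was higher at day 2, as for 6.17% of all probes, but unevenly: replicates 1 and 2 were each 0.13 higher, replicate 5 was 0.77 higher, replicate 4 was 1.25 higher and replicate 3 was 2.61 higher. The mean change was 0.98 ± 0.35 (SE, n = 5 pairs), 1.97-fold with a 95% interval of 1.11 to 3.48. The limma p was 0.0254 and the adjusted p 0.275, and 3.04% of all probes had a mean change at least as large in either direction. Leaving out replicate 3 brought the mean change to 0.57, and the normexp background correction brought it to 0.53.

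At day 5 SGK1 read 3.31, 2.59, 2.15, 2.58 and 3.97, again higher in 5 of 5 pairs, as for 7.23% of all probes, and more evenly so, by 0.49 to 1.30. The mean change of 0.84 ± 0.17 (SE, n = 5 pairs), 1.79-fold with a 95% interval of 1.35 to 2.37, was the member change with the lowest unadjusted p in any comparison, 0.00152 by limma. Its adjusted p was 0.279, the smallest adjusted value in that comparison. The adjustment gives that same value to many probes at once, so it does not rank SGK1 first among them. Of all probes, 1.58% had a limma p under 0.005 there. Without the pairing by replicate number its p was 0.0438 and its adjusted p 0.936. Within slides, day 5 was higher on 4 of 5 slides, with differences from −0.55 to 2.53. Those slide differences were mostly between arrays of different replicate numbers and so ignore the pairing.

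By day 30 SGK1 read 3.74, 2.48, 2.10, 1.72 and 2.53, higher than before irradiation in 4 of 5 pairs by a mean of 0.43 ± 0.20 (adjusted p = 0.316), which was 0.28 without replicate 1 and 0.27 with normexp. A mean change of that size or larger was common at day 30, at 26% of all probes. The group means ran from 2.08 before irradiation through 2.51 at day 30 and 2.92 at day 5 to 3.06 at day 2. Day 5 and day 2 differed by 0.14 with an interval of −0.99 to 0.71 for day 5 minus day 2, and day 30 was below day 5 by 0.41, with adjusted p values of 0.986 and 0.676; without replicate 5 the latter difference was −0.15.

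**Figure D3:**
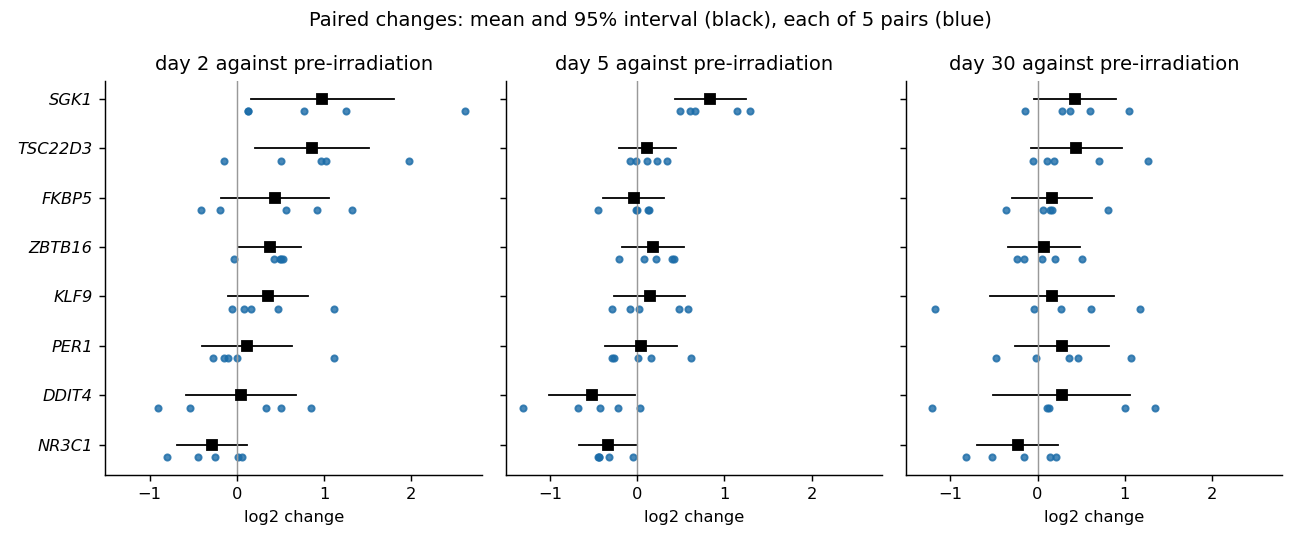
Mean paired log2 change of each gene from pre-irradiation (black square) with its 95% interval from limma (black line) and the 5 single pairs (blue points), at day 2, day 5 and day 30. The intervals of SGK1 lie above 0 at day 2 (0.16 to 1.80) and day 5 (0.43 to 1.25). Those of TSC22D3 (0.21 to 1.52) and ZBTB16 (0.027 to 0.73) lie above 0 at day 2. At day 5 those of DDIT4 (−1.01 to −0.028) and the brighter NR3C1 probe (−0.67 to −0.012) lie below 0. None of these changes passed the false discovery threshold.

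KLF9 and ZBTB16 encode zinc finger transcription factors that the receptor induces directly in many cell types, and ZBTB16, also called PLZF, is in addition a regulator of innate-like lymphocytes. KLF9 was 0.64, 0.63, 0.051, 1.36 and 0.33 before irradiation and 1.11, 0.79, 0.13, 1.30 and 1.44 at day 2. Its mean change at day 2 was 0.35 ± 0.20 (SE, n = 5 pairs; higher in 4 of 5), of which replicate 5 gave the largest single value at 1.11; without it the change was 0.16, and the adjusted p with all 5 was 0.434. The day 5 and day 30 changes were 0.14 ± 0.18 and 0.17 ± 0.31, and at day 30 replicates 4 and 5 moved 1.17 down and 1.18 up. The day 5 change was 0.031 without replicate 5 and 0.020 with another scaling.

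ZBTB16 was −1.07, −1.93, −0.90, −1.06 and −1.14 before irradiation and −0.58, −1.40, −0.94, −0.64 and −0.64 at day 2. Replicate 2 had the lowest level in each of the 4 groups, yet its change at day 2 was like that of the others: replicates 1, 2, 4 and 5 were higher by 0.49, 0.52, 0.42 and 0.50, and replicate 3 was lower by 0.04. The mean change was 0.38 ± 0.15 (SE, n = 5 pairs; 95% interval 0.03 to 0.73), with an adjusted p of 0.308 by limma. It was 0.18 ± 0.15 at day 5 and 0.07 ± 0.18 at day 30, and day 30 was below day 2 in 5 of 5 pairs by a mean of 0.31, as for 6.69% of all probes, with an adjusted p of 0.426.

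PER1, a repressor of the circadian clock that is also switched on by glucocorticoids, was −1.31, −1.09, −1.23, −0.70 and −0.58 before irradiation. At day 2 it was −0.20, −1.23, −1.34, −0.98 and −0.59. Only replicate 1 was higher at day 2, by 1.11, and the other four pairs were lower, so that the mean change of 0.12 ± 0.22 became −0.13 without replicate 1. The mean change was 0.04 ± 0.18 at day 5 and 0.28 ± 0.23 at day 30, where replicate 1 was again highest at 1.07 above its earlier value and the mean without it was 0.083, and the adjusted p values for the 3 days were 0.830, 0.945 and 0.561. Sampling hours were not compared here.

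DDIT4 encodes REDD1, an inhibitor of mTORC1 that responds to glucocorticoids and also to DNA damage and to lack of oxygen. It had the widest spread of the 8 genes before irradiation, with an SD of 0.88 and levels of 1.67, 1.04, 0.17, 2.57 and 1.28 before irradiation and 2.01, 0.50, 1.03, 1.66 and 1.78 at day 2. At day 5 it read 0.998, 1.08, −0.046, 1.26 and 0.85, and at day 30 it read 2.67, 1.17, 0.29, 1.36 and 2.62. Day 2 did not stand apart in either direction (0.05 ± 0.27, SE, n = 5 pairs). At day 5 it was below pre-irradiation in 4 of 5 pairs by a mean of 0.52 ± 0.21 (adjusted p = 0.426, limma), and without replicate 4 the change was −0.32. At day 30 it was above day 5 in 5 of 5 pairs, as for 3.66% of all probes, by a mean of 0.79 ± 0.31 (adjusted p = 0.579). The day 30 change from pre-irradiation was 0.27 ± 0.34 (adjusted p = 0.709, limma), with single pairs from −1.21 to 1.34. Without replicate 5 it was 0.0081.

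Read by replicate number, the members did not move as a block. At day 2, replicate 1 had 7 members higher and 1 lower with a median change of 0.48, and replicate 5 had 6 higher and 2 lower with a median of 0.64. Replicates 2 and 3 each had 4 higher and 4 lower, with medians of −0.04 and 0.02, although replicate 3 held the largest single changes, those of SGK1 and TSC22D3. Replicate 4 lay between, with 5 higher and a median of 0.22. At day 30 replicates 1 and 5 again had the highest medians, 0.49 and 0.58, and replicate 4 the lowest at −0.14; the 2 days were set against the same pre-irradiation arrays. At day 5 all 5 medians lay between −0.11 and 0.10.

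**Figure D4:**
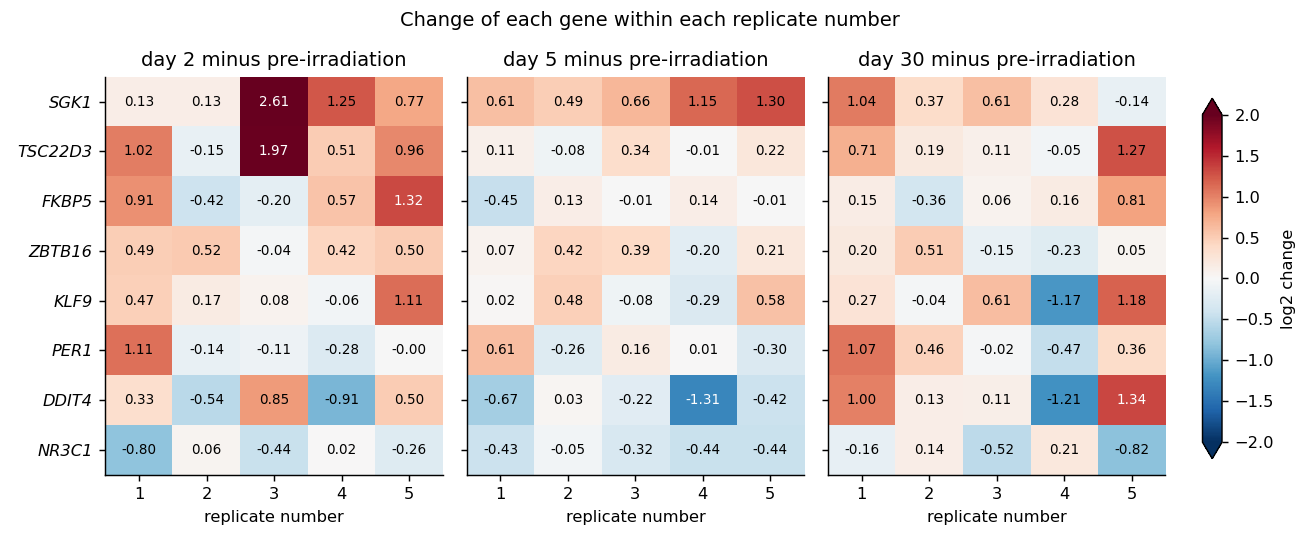
Log2 change of each gene (rows) within each replicate number (columns) from pre-irradiation to day 2, day 5 and day 30; red is higher and blue lower, and colours are capped at 2 units. At day 2 the darkest cells are SGK1 and TSC22D3 in replicate 3 (2.61 and 1.97), and FKBP5 in that replicate is −0.20.

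The days after exposure were also compared with each other. In day 5 against day 2, 0 of 8 members were called against 0% of all probes, and 1 member, TSC22D3, had an unadjusted p under 0.05 against 3.56% of all probes. All 8 members were on average lower at day 5 than at day 2, where 40.3% of all probes were, with a median difference of −0.21 against 0.05 over all probes; under the normexp correction SGK1 and NR3C1 were higher instead. In day 30 against day 2, 0 of 8 were called against 0.0501% of all probes, 3 members were higher and 5 lower where 50.2% of all probes were higher, and 0 had an unadjusted p under 0.05 against 12.8% of all probes. In day 30 against day 5, 0 of 8 were called against 0% of all probes, 6 were higher and 2 lower where 42.9% of all probes were higher, and 1, DDIT4, had an unadjusted p under 0.05 against 8.48% of all probes. These comparisons reuse the arrays of the comparisons with pre-irradiation and are not separate evidence.

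Over the 20 arrays, after the mean of each replicate number was subtracted, the members were only loosely alike. DDIT4 and TSC22D3 had a Pearson r of 0.65, FKBP5 and KLF9 one of 0.58, and SGK1 and TSC22D3 one of 0.56, while FKBP5 and SGK1 were at −0.09. The brighter NR3C1 probe ran against KLF9 at −0.58 and against TSC22D3 at −0.44. Among the 15322 probes that cleared background on every array, the 3 genes most like SGK1 were PRDX5, a peroxiredoxin (r = 0.92), BIK, a pro-apoptotic BCL2 family member (0.91), and ATP6V0B, a proton pump subunit (0.90). Among the genes most like TSC22D3 were TECPR2 (0.89) and ERAP1, an aminopeptidase that trims antigenic peptides (0.89). DDIT4 was most like FOXO1, a transcription factor (0.91), WBP11 (0.90) and GID8 (0.87), and NR3C1 was most like PUM2, SH3KBP1 and EIF4ENIF1, each at 0.88.
The nearest genes to FKBP5 were AMOTL2, SSPN and FHL2 (0.82 to 0.85), to KLF9 GATM, RNF6 and SEC23A (0.82 to 0.87), to PER1 PTPRS, TRIM68 and ARMCX6 (0.78 to 0.81), and to ZBTB16 PLA2G15, MEIS1 and F11R (0.78 to 0.79). These values are a ranking over arrays that share slides and scaling and carry no test.

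A wider list of 24 genes that glucocorticoids are known to induce in leukocytes had 23 tested members. At any day 0 of them were called (limma), where 0.0601%, 0% and 0% of all probes were at day 2, day 5 and day 30. At day 2, 9 had an unadjusted p under 0.05 and were higher and 2 were lower, with a median change of 0.52; 8.47% of all probes were higher and 6.55% lower at that p. At day 5 the counts were 4 and 1 with a median of 0.20, against 7.35% and 3.82% of all probes, and at day 30 they were 13 and 1 with a median of 0.73, against 7.43% and 10.1%. THBD, the anticoagulant receptor thrombomodulin, was 1.39 higher at day 2 and 1.27 higher at day 30, and IL1R2, a decoy receptor for interleukin 1, was 1.41 higher at day 2 and 1.04 at day 5, each in 5 of 5 pairs. The mRNA-destabilising protein gene ZFP36 was 0.79 higher at day 2 and CRISPLD2, which encodes a secreted protein that binds endotoxin, was 1.55 higher at day 5, in 5 of 5 pairs each; CRISPLD2 was also 2.06 higher at day 2, in 4 of 5 pairs. With the normexp correction these became 0.33 for ZFP36 at day 2, 0.54 and 0.85 for CRISPLD2 at day 5 and day 2, and 0.67 for IL1R2 at day 5. At day 30 the haemoglobin scavenger receptor CD163 was 0.97 higher, the pyruvate dehydrogenase kinase PDK4 1.20, the cell cycle inhibitor CDKN1C 1.04 and the transcriptional repressor BCL6 1.04, all in 5 of 5 pairs, with adjusted p values of 0.126 to 0.155.

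Not every gene of the list ran that way. IL7R, the interleukin 7 receptor of T cells, was lower in 5 of 5 pairs at each day, by 0.68, 0.60 and 0.64, and CEBPD, the brightest gene of the list, had changes of 0.035, −0.0052 and −0.50. The metallothionein gene MT2A had changes of 0.12, −0.05 and −0.07. Per array, the summed signal of the list went from 316 ± 17 times the 75th percentile before irradiation to 400 ± 65 at day 2, 339 ± 58 at day 5 and 430 ± 124 at day 30 (SD, n = 5 arrays). Such linear sums weigh the brightest genes most.

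Of 12 genes that glucocorticoids are known to restrain, 5 were tested, 6 were too dim to test and CCL4 was not named by any probe. IL1B, the cytokine interleukin 1 beta, was 0.86 higher at day 2 in 5 of 5 pairs (adjusted p = 0.143, limma), and PTGS2, the inducible cyclooxygenase, was 1.01 higher at day 30 in 5 of 5 pairs (adjusted p = 0.147). With normexp these were 0.44 and 0.52. The medians of the 5 genes were 0.43, 0.22 and 0.47 at the 3 days. At an unadjusted p under 0.05 (limma), 2 were higher and 0 lower at day 2, 0 and 1 at day 5, and 2 and 0 at day 30. Of all probes, 8.47% were higher and 6.55% lower at day 2, 7.35% and 3.82% at day 5, and 7.43% and 10.1% at day 30. The lowest change at day 5 was that of CCL3, at −0.62. At day 2 PTGS2 had the largest change of the list, 0.98 higher in 5 of 5 pairs (adjusted p = 0.250, limma). The chemokine gene CCL3 had a change of −0.51, lower in 3 of 5 pairs (adjusted p = 0.506), which was −0.25 without replicate 5, −0.26 without replicate 3 and −0.79 without replicate 1.

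Of 19 genes for the receptor's chaperones and coregulators, 17 were tested and 0 were called at any day (limma), where 0.0601%, 0% and 0% of all probes were. At day 2, 1 was higher and 2 lower at an unadjusted p under 0.05, at day 5 it was 1 and 3, and at day 30 none, with medians of −0.12, −0.13 and 0.06, where 8.47% of all probes were higher and 6.55% lower at day 2, 7.35% and 3.82% at day 5, and 7.43% and 10.1% at day 30. The co-chaperone gene PTGES3, well above background on 6 of 20 arrays, was 0.70 higher at day 2, while the heat shock cognate HSPA8 was 0.46 lower, and HSP90AA1, the brightest of the list, was lower by 0.37 with an adjusted p of 0.453. PTGES3 was 0.34 higher without replicate 2, and with normexp the other two changed by −0.84 and −0.79. Leaving out 1 replicate at a time gave −0.57 to −0.21 for HSP90AA1. Among the 12 core clock genes and outputs, 10 were tested and 0 called, against the same shares of all probes, with medians of −0.24, −0.20 and −0.05. At an unadjusted p under 0.05, 1 was higher and 2 lower at day 2, 0 and 1 at day 5, and 0 and 2 at day 30. DBP, a clock output gene, was 0.67 lower at day 30 in 5 of 5 pairs (adjusted p = 0.147, limma), and at day 2 CRY1, well above background on 8 of 20 arrays, was lower by 0.47 and ARNTL, the brightest of that list, was higher by 0.41. With normexp CRY1 turned to 0.44 higher, ARNTL was at 0.045 and DBP at −0.26.

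In whole blood a change in the share of a cell type and a change of RNA within its cells cannot be told apart, and markers of several cell types differed on the same arrays. All 12 tested neutrophil markers were above pre-irradiation at each day, with medians of 1.01, 0.71 and 0.99. Their summed signal ran from 135 to 390 times the 75th percentile before irradiation (median 307) and from 288 to 912 at day 2 (median 572). That linear sum is mostly the signal of CSF3R and CAMP, with mean log2 signals of 16.1 and 14.2, and the next marker, MMP25, was at 12.4. The brightest, the granulocyte colony-stimulating factor receptor CSF3R, was 0.997 higher at day 2 (0.54 with normexp), and of the defining markers MMP8 was too dim to test and FCGR3B was not named by any probe. By replicate number the neutrophil medians at day 2 were 1.06, 0.07, 2.09, 1.29 and 0.25, beside the SGK1 changes of 0.13, 0.13, 2.61, 1.25 and 0.77: replicate 3 had the largest value in both, while replicates 1 and 5 stood in the opposite order. The TSC22D3 changes were 1.02, −0.15, 1.97, 0.51 and 0.96, also highest in replicate 3 and lowest in replicate 2, while replicate 4 was below replicates 1 and 5 and its neutrophil median above theirs.

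All 18 T and NK cell markers were below pre-irradiation at day 2, with a median of −0.64, 13 of them at an unadjusted p under 0.05, against 6.55% of all probes lower at that p; the medians at day 5 and day 30 were −0.38 and −0.29. KLRB1, a receptor of NK cells and innate-like T cells, fell by 1.67 log2 units with an adjusted p of 0.0965 (limma). The call was lost when any of replicates 1, 3, 4 or 5 was left out, where the change was −1.59 to −1.66. It was also lost with normexp, which gave −0.83. The brightest, the T cell receptor chain gene CD3D, had a change of −0.57 (−0.98 with normexp), and the summed signal went from 243 ± 31 to 151 ± 28 (SD, n = 5 arrays). Monocyte markers were higher in 9 of 9 at day 2 with a median of 0.54 (0.37 and 0.47 at day 5 and day 30), CD14 being the brightest and higher by 0.58 (0.14 with normexp), and CTSS and MRC1 were too dim to test. Platelet markers were higher in 10 of 10 at day 2 with a median of 1.47, followed by 0.45 at day 5 and −0.09 at day 30; the chemokine gene PF4, the brightest, was higher by 1.47, and their summed signal went from 94.8 ± 35.4 to 267 ± 140. The part of these cell markers in the changes of the 8 genes was not tested.

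**Figure D5:**
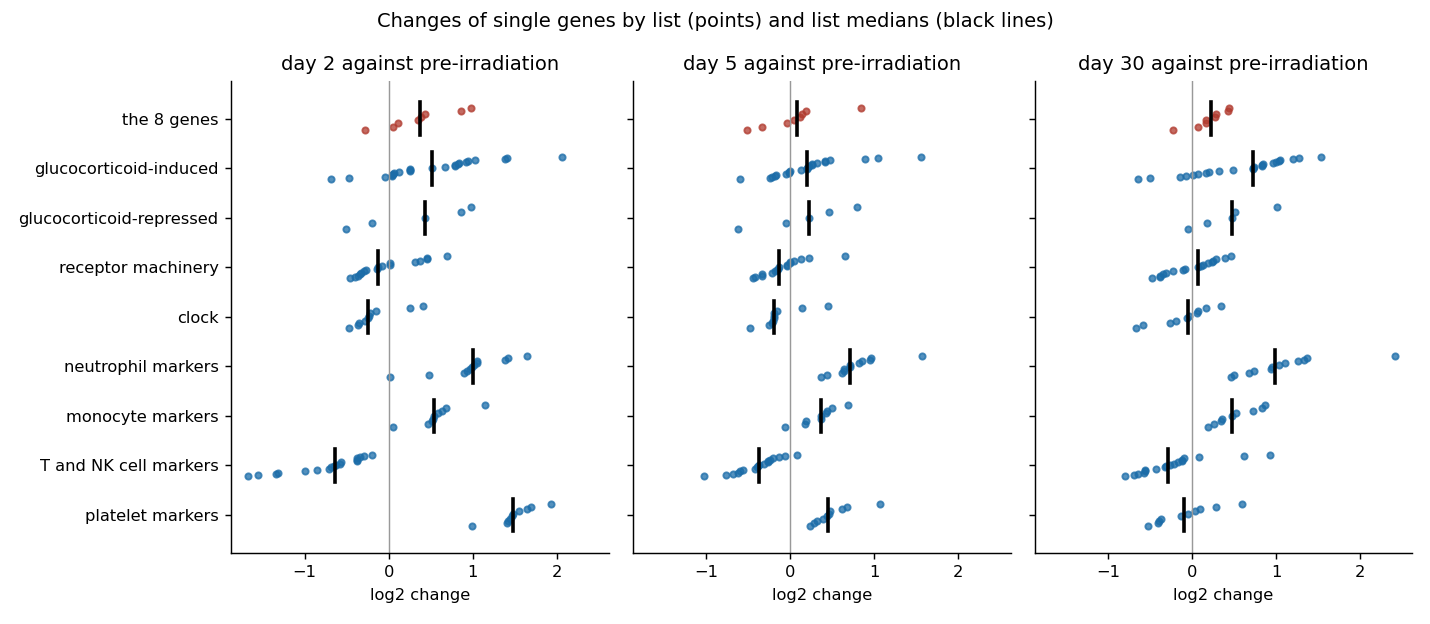
Log2 change of single genes from pre-irradiation at day 2, day 5 and day 30, for the 8 genes (red) and for lists of related genes and cell markers (blue); black lines are list medians. The 8 genes have medians of 0.37, 0.08 and 0.22, the wider induced list 0.52, 0.20 and 0.73, and the neutrophil markers 1.01, 0.71 and 0.99.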

How the data were processed

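The 20 arrays, 5 in each of 4 groups, were analysed together. The authors' scanner files hold spot intensity from Feature Extraction 12.0.2.2 per the file headers (10.7 per the labels' processing notes), background-subtracted but not scaled between arrays. A deposited table holds log2 values of 5884 probes, which for many genes were the log2 processed intensity plus a constant per array that the authors' methods do not state. Not all values followed that. With them the day 2 change of SELP went from 1.65 to 1.68, but that of ITGB3 from 1.94 to 1.58. Here each array's 75th percentile over all gene spots was subtracted from the log2 processed intensity and repeated spots were averaged. Per array, 50.9% to 67.3% of spots cleared their background; having only 5 arrays a group is one limit on precision. Of 34127 probes, the 19961 that cleared it on 5 arrays or more were tested with limma 3.58.1 (R 4.3.3), blocked by replicate number, with Benjamini-Hochberg adjustment over all of them. The authors' methods match replicates by animal; same-numbered arrays deviated together with mean correlations of 0.18 to 0.44, although the lowest single correlation, in replicate 3, was −0.16. The procedure was run on simulated data for day 2 against pre-irradiation only, with noise independent between probes and arrays. The changes put in were larger than any mean change of the 8 genes, so power at their size was not examined. The 8 genes and the 11 lists were chosen with earlier results of these data known. From the lists, genes were named from among those with a p under 0.005 and 1 direction in every pair, the brightest gene of each list and the largest changes at day 2, and of the cell markers that met this only examples are printed; IL7R and MT2A were added after their values were seen, and 1 gene is not reported here. Each slide held 1 array of each group, always at the same position, so position and group cannot be told apart. Alternatives were other scalings, background correction, probe filters, the deposited table, other blocks and leaving out each replicate.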

Additional observations from a re-analysis of the deposited data

Results flagged for a closer look

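ZBTB16 before irradiation had 1 array far from the other four. Replicate 2 stood at −1.93, while the others lay between −1.14 and −0.90 on the log2 scale relative to the 75th percentile. Of 32 groups of 5 arrays examined, this was the only one set apart, and chance sets apart about 1 in 20 such groups. The same replicate number was also lowest at the other 3 times, and without it the day 30 change of ZBTB16 was −0.034 instead of 0.075.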

How the results depend on the processing

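None of the 8 genes was called under any alternative in any comparison, and the lowest adjusted p was 0.107. Of 696 alternative values for their 48 changes, 669 kept their direction and 27 turned, in 16 changes; the cause was not tested. Normexp background correction brought the median of all probes at day 2 from −0.04 to 0.17 and gave −0.26 for DDIT4 at day 2, 0.28 for SGK1 and 0.22 for NR3C1 in day 5 against day 2, −0.042 for KLF9 in day 30 against day 5, and, of the related genes at day 2, −0.43 for CEBPD, 0.44 for CRY1 and 0.0081 for NR1D2. Median scaling gave −0.0041 for TSC22D3 and −0.076 for PER1 at day 5, and 0.079 for ZBTB16 in day 30 against day 5, and quantile normalization gave −0.046 for TSC22D3 at day 5 and −0.052 for CEBPD at day 2. The mean over both NR3C1 probes gave 0.059 at day 30.

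Leaving out 1 replicate at a time turned small changes. Against pre-irradiation the range was −0.15 to 0.29 for DDIT4, −0.13 to 0.21 for PER1 and −0.13 to 0.23 for CEBPD at day 2. It was −0.086 to 0.061 for FKBP5, −0.097 to 0.13 for PER1 and −0.024 to 0.24 for the second NR3C1 probe at day 5, and −0.083 to 0.50 for KLF9 and −0.034 to 0.15 for ZBTB16 at day 30. In day 5 against day 2 it was −0.30 to 0.32 for SGK1, −0.16 to 0.048 for NR3C1 and −0.16 to 0.034 for PER1. In day 30 against day 2 it was −0.37 to 0.047 for KLF9 and −0.089 to 0.21 for NR3C1, and in day 30 against day 5 it was −0.14 to 0.26 for KLF9, −0.025 to 0.23 for NR3C1 and −0.16 to 0.0048 for ZBTB16. For SGK1 at day 2 the range was 0.57 to 1.19 and for TSC22D3 0.59 to 1.12, the lowest without replicate 3 in each.

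The fit without the replicate block, which ignores the pairing, left 0 of the 8 genes called and gave adjusted p values of 0.430 for SGK1 and for TSC22D3 at day 2. Related genes and cell markers were nearer the threshold. With only the 15322 probes bright on all arrays THBD (adjusted p = 0.0642, limma), IL1R2 (0.0766) and IL1B (0.0721) were called at day 2. The same filter called THBD, CD163, PDK4, CDKN1C, BCL6, PTGS2 and DBP at day 30 (0.0562 to 0.0864). With normexp THBD (0.00471), PDK4 (0.0148) and CD72 (0.00445) were among the genes called at day 30. Without replicate 2, TXNIP (0.0469), ZFP36 (0.0829) and CRISPLD2 (0.0910) were among those called at day 2. KLRB1 was lost under 8 alternatives. The local ratio of signal to background, 1.68 to 2.46 on the median spot, limits dim probes most.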

Other observations

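Further marker lists were read on the same arrays. The 10 tested B cell markers were below pre-irradiation in 10 of 10 at day 2 and day 5 and in 9 of 10 at day 30, with medians of −0.50, −0.53 and −0.49, and CD72, the brightest, was 1.34 lower at day 30 in 5 of 5 pairs (adjusted p = 0.126, limma); MS4A1 and PAX5 were too dim to test. The 10 eosinophil and basophil markers had medians of 0.08, −0.17 and −0.34. The 10 erythroid markers had medians of −0.11, 0.21 and −0.73, and by replicate number their day 30 medians ran from −2.32 in replicate 5 to 1.44 in replicate 3.

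In day 30 against day 2, 3 of the 18 T and NK cell markers were called, where 0.0501% of all probes were, and 15 were higher with a median of 0.20; against pre-irradiation, 15 of the 18 were still lower at day 30. GZMK, a granzyme of memory T cells, lay below pre-irradiation at day 2 by 0.99 and above it at day 30 by 0.93, in 5 of 5 pairs each time, and was called in day 30 against day 2 at 1.92 higher (adjusted p = 0.0940, limma), together with KLRB1 at 2.29 and KLRD1 at 1.43. CD3E, a chain of the T cell receptor complex, ran the other way, with a change of −0.45 from day 2 to day 30, lower in 5 of 5 pairs (adjusted p = 0.363). The 8 glucocorticoid-responsive genes had mean changes of −0.55 to 0.23 in that comparison.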
